A study of Mus musculus with 2 samples.

Results

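The canonical, cluster-encoded histone genes of the mouse were examined for H3K27ac, the acetylation of histone H3 at lysine 27 that marks active promoters and enhancers. Members were the protein-coding genes whose GENCODE M21 symbol begins with Hist and a digit, which gave 67 of 21938 protein-coding genes outside the mitochondrial chromosome. The chromatin came from unstimulated bone marrow-derived macrophages of strain C57BL/6J, the only group of the study. The measurement was chromatin immunoprecipitation with sequencing (ChIP-seq) in 2 biological replicates, each started from 10 ng of DNA. Per the labels, the biosamples were separate but shared 1 donor entry, sex was not collected, and age and stage were unknown or not collected. The data were lists of peaks, with 29543 peaks in replicate 1, 29345 in replicate 2 and 32877 in the replicated list that the authors made from both libraries. Here a gene counts as marked if both replicates have a peak that reaches within 1 kb, upstream or downstream, of an annotated start. Fold is the deposited linear enrichment of a peak over control or background. It was used to rank peaks within a list, and the depth behind it is not given in the sources used here.

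Canonical histone genes encode the bulk of the histones that package newly copied DNA. Their transcription is tied to S phase, when new DNA is made, and is organised at the histone locus body, a nuclear body built around the coactivator Npat. The genes have no introns as a rule, and their mRNAs end in a conserved stem-loop instead of a poly(A) tail. H2A, H2B, H3 and H4 form the nucleosome core, and H1 binds the linker DNA. Most members lie in the large Hist1 cluster, the rest in Hist2, Hist3 and Hist4, and many H2A and H2B genes stand head to head on either side of a shared promoter. A few members, among them Hist1h1t, Hist1h2ba and Hist1h2aa, are known as testis-type histones made in the male germ line.

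The promoters that set apart the groups described here were read from GRCm38.p6, the build of mm10, and are shown 5′ to 3′. Capitals mark 4 words on either strand: TATAAA (the TATA box), CCAAT (bound by the factor NF-Y), the octamer ATTTGCAT (bound by POU factors such as Pou2f1) and AAACACA (the H1 box known from H1 genes). The first 4 sequences lie between the starts of head-to-head pairs and are given on the plus strand, with the gene named first transcribed to the left. Hist2h2ac-Hist2h2be (chr3:96220881-96221118) was the H2A/H2B pair of highest fold and Hist1h2ak-Hist1h2bn (chr13:21753828-21754122) the marked pair of lowest fold in the replicated list. Hist1h2bq-Hist1h2ao (chr13:21810198-21810464) lies in a duplicated stretch and had no peak. Hist1h2ba-Hist1h2aa is the testis pair, also without a peak, of whose 305 bases the first 300 are shown (chr13:23934157-23934456).
Hist2h2ac-Hist2h2be: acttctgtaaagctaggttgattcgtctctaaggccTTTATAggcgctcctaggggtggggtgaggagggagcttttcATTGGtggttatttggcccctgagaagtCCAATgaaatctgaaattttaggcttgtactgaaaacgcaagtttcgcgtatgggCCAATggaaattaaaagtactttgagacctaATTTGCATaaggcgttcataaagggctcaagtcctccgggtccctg
Hist1h2ak-Hist1h2bn: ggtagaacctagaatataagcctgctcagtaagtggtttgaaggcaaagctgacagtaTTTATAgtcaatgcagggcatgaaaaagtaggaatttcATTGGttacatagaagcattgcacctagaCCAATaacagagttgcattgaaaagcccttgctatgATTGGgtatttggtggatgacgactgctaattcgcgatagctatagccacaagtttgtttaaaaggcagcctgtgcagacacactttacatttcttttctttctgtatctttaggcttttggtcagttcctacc
Hist1h2bq-Hist1h2ao: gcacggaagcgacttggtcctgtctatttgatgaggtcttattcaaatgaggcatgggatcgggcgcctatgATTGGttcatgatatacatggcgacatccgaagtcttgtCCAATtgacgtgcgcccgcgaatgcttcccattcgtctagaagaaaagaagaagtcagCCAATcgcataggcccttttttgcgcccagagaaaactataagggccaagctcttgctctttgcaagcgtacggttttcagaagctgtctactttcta
Hist1h2ba-Hist1h2aa: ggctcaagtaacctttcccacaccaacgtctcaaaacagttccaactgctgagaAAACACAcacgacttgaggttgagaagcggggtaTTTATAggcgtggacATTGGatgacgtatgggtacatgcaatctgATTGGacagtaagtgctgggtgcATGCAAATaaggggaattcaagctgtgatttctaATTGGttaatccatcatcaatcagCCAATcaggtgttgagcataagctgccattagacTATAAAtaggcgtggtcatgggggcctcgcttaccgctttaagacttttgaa

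The next 3 sequences are the 250 bases before the 5′ end of single genes, on the strand of the gene. Hist1h1e (chr13:23622559-23622808, minus strand) and Hist1h3c (chr13:23745603-23745852, minus strand) had the highest fold among H1 and H3 genes. Hist1h1t (chr13:23695564-23695813, plus strand) is the testis H1 gene and had no peak.
Hist1h1e: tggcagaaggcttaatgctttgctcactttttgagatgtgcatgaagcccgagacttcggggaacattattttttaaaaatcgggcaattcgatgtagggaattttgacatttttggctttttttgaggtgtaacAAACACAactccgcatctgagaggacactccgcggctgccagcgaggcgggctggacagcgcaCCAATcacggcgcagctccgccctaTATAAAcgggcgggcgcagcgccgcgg
Hist1h3c: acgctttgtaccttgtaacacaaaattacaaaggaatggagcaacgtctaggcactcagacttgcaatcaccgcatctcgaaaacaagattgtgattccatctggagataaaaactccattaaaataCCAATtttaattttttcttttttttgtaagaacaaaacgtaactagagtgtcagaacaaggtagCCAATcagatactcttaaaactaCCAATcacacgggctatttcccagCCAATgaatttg
Hist1h1t: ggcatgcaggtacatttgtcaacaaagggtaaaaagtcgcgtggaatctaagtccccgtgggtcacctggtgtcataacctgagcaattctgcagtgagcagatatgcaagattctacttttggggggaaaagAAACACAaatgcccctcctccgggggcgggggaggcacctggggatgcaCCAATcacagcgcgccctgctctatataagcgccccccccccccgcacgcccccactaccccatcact

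Of the 67 histone genes, 57 were marked, or 85.1% (95% Wilson interval 74.7 to 91.7%), against 8576 of 21871 other protein-coding genes, or 39.2% (38.6 to 39.9%). The background over all 21938 genes was 39.4%. The same 57 genes had a promoter peak in replicate 1, in replicate 2 and in the replicated list. The intervals cover counting error only, and the histone genes are not independent of each other, since neighbours share peaks. No test was made, because the members were picked with earlier results of these data known. The chromatin carried the marks of its label: 10 of 10 macrophage marker genes were marked, among them Spi1 and Csf1r, and 0 of 21 markers of 6 other cell types.

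The Hist1 cluster on chromosome 13 had 45 of 54 genes marked (83.3%). Hist2 on chromosome 3 had all 10 marked, Hist3 on chromosome 11 had 1 of 2, and the single Hist4 gene on chromosome 6 was marked. Joining members within 100 kb of each other divided Hist1 into 4 blocks, with 12 of 18 genes marked in block 1, 5 of 5 in block 2, 28 of 29 in block 3 and 0 of 2 in block 4. The blocks span 122, 8.51, 233 and 1.08 kb. The whole of Hist1 runs over 2219 kb, and the 49 other protein-coding genes between its ends include 36 vomeronasal receptor genes (symbols beginning Vmn). Only 3 of those 49 were marked, namely Zfp322a, Abt1 and Hfe. Peaks of the replicated list covered 50.6% of the bases from the first to the last Hist2 gene, 16.9% in Hist1 block 1 and 25.7% in Hist1 block 3. Block 1 includes much of an inverted duplication, described below, where reads may match both arms alike, so its value is uncertain.

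By histone type, 12 of 12 H3 genes were marked, 11 of 13 H4 genes, 5 of 6 H1 genes, 15 of 18 H2A genes and 14 of 18 H2B genes. The Wilson intervals of the 5 types overlap, from 54.8 to 91.0% for H2B and from 75.8 to 100% for H3. Both unmarked H4 genes, Hist1h4m and Hist1h4n, lie in the inverted duplication of Hist1 block 1 described below. No order of the types was drawn from these shares.

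**Figure D1:**
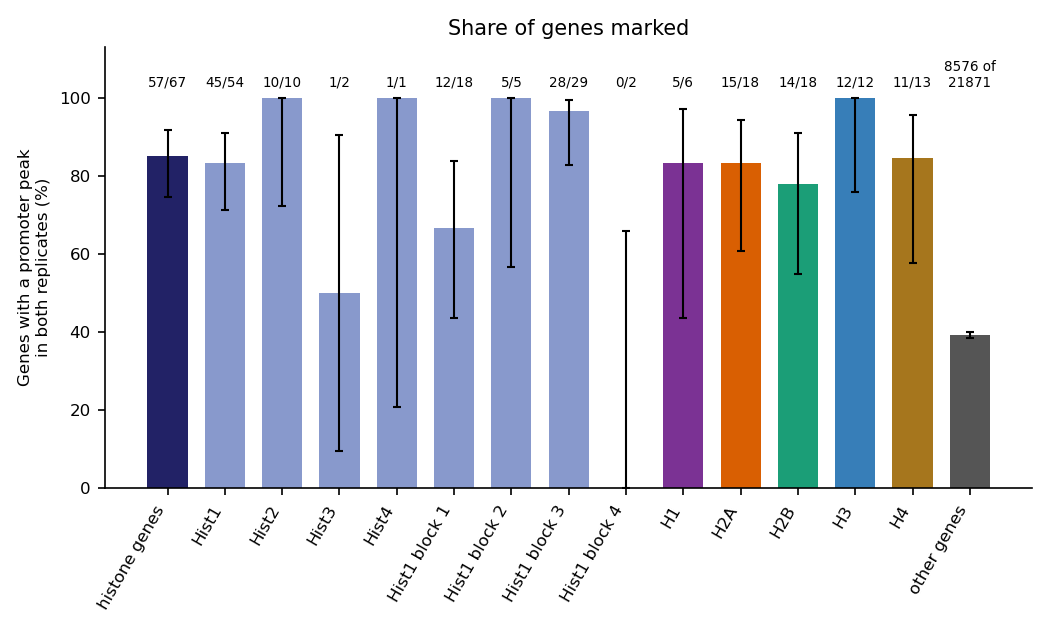
Share of genes with a promoter peak in both replicates (%), for the histone genes, their clusters, the blocks of Hist1 and the histone types, with all other protein-coding genes at the right; bars give the share, error bars its 95% Wilson interval, and the numbers over them the counts. All histone genes stand at 85.1% and the other genes at 39.2%; block 4 of Hist1, the testis pair, is at 0.

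The 10 histone genes without a promoter peak had none in any of the 4 lists. They fall into a group of 6 neighbours in Hist1 block 1, the 3 testis-type genes, and Hist3h2ba. The 6 neighbours are Hist1h2bq, Hist1h2ao, Hist1h4m, Hist1h4n, Hist1h2ap and Hist1h2br. They sit in an inverted duplication whose arms, chr13:21796385-21812409 and chr13:21831532-21847530, are identical at 15981 of 16026 aligned columns (99.7%). A read that matches both arms alike cannot be assigned to either, so the values of these 6 genes are uncertain. Of the 50-base words in their 2 kb windows, 0 to 8.04% occur once in the genome, and the nearest peak in either replicate was 18568 to 23206 bp from their 5′ ends. The read length and the rule for reads with several matches are not given in the sources used here, and the part of repetition in the missing peaks was not tested.

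The other 4 unmarked genes lie in sequence that is almost wholly unique. Hist1h1t (chr13:23695814-23696725), the testis-type H1, had 100% unique 50-base words in its window. Its nearest peaks began 1772 bp from the 5′ end in replicate 1 and 1390 bp in replicate 2, outside the window. In the replicated list the nearest peak, 1334 bp away, was that of its neighbour Hist1h4c, which is read towards it from the other strand and was the marked gene of lowest fold. Hist1h2ba and Hist1h2aa, a testis-type H2B and H2A, had 92.9% unique words and their nearest peak in either replicate lay at least 134020 bp away. None of the 6 germ cell markers (Ddx4, Dazl, Sycp1, Prm1, Prm2, Tnp1) was marked either. Hist3h2ba (chr11:58948920-58949533) had 93.1% unique words, with the nearest peak 5321 bp away in replicate 1 and 4679 bp in replicate 2. Its cluster neighbour Hist3h2a was marked, as was Trim17, another gene within the Hist3 span.

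Other members in repeated sequence did have peaks. In Hist2, an inverted duplicate of 2112 aligned columns (2103 identical, 99.6%) carries Hist2h2aa2 in one arm and Hist2h2aa1 in the other, and Hist2h3c2 and Hist2h3c1 reach into the arms. Of the 50-base words in their windows, 42.8% occur once for Hist2h2aa2, 45.6% for Hist2h2aa1, 22.4% for Hist2h3c2 and 21.5% for Hist2h3c1. All 4 were marked, in part by peaks in the unique sequence beyond the arms. Which copy gave the signal inside the arms cannot be told apart, but the peaks that give these 4 genes their highest folds lie mostly outside the arms. Unmarked members had a median of 7.53% unique 50-base words in the window, against 81.3% for marked members.

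**Figure D2:**
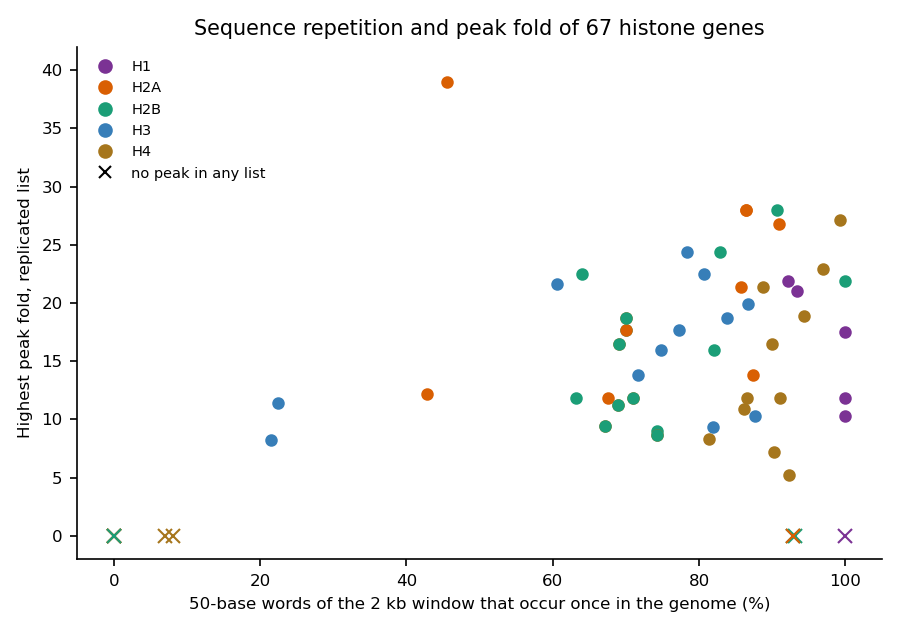
Share of the 50-base words in each gene's 2 kb window that occur once in the genome (%, horizontal) against the highest fold in that window in the replicated list (vertical), for 67 histone genes coloured by type; crosses at 0 are genes with no peak. A group of 6 crosses lies at 0 to 8.04% and another of 4 at 92.9 to 100%.

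For the marked histone genes, the highest fold in the window had a median of 14.6 in replicate 1, 15.4 in replicate 2 and 16.5 in the replicated list, with a range of 5.19 to 39.0 in the last. That placed the median histone gene at percentile 84.8 of all peaks of the replicated list, against percentile 73.9 and a fold of 11.4 for the marked other genes. The ratio of replicate 2 to replicate 1 ran from 0.847 at Hist1h2bb to 1.30 at Hist1h4c, with a median of 1.07. The ends of the order lay much further apart than the replicates of any gene, while many neighbours in it did not.

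Hist2 genes had the higher folds, with a median of 24.8 in the replicated list, against 13.8 in Hist1. In replicate 1 these medians were 23.0 for Hist2 and 11.5 for Hist1, and in replicate 2 they were 23.2 and 12.2. Hist2h2aa1, an H2A gene, headed the family with folds of 34.1 in replicate 1 and 37.4 in replicate 2. Its peak reached 39.0 in the replicated list, rank 376 of 32877, and lay upstream of the 5′ end at chr3:96243392-96245364. Next came 1 peak over the windows of the H2A genes Hist2h2ab and Hist2h2ac and the H2B gene Hist2h2be, with 26.7 and 26.5 in the replicates and 28.0 in the replicated list. That peak also overlapped the window of Bola1, which is no histone gene. Hist2h4, which encodes H4, had 24.8 and 25.6 in the replicates and 27.1 in the replicated list. The H3 gene Hist2h3b and the H2B gene Hist2h2bb shared a peak of 21.2 and 20.7 in the replicates. At the low end of Hist2 stood the H2A gene Hist2h2aa2, with 11.5 and 11.1, and 2 H3 genes. These were Hist2h3c2 with 10.8 and 11.1 and Hist2h3c1 with 7.92 and 7.78. The 5′ ends of all of them lie in the duplicate, as does that of Hist2h2aa1.

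The single marked gene of Hist3, Hist3h2a, had folds of 25 and 25.1 in the replicates, at peaks that also overlapped the window of Trim17. Hist4h4, the only member of its cluster and a further H4 gene, had 21.0 and 22.8. In replicate 2 both were above every Hist1 gene, the highest of which had 22.0; in replicate 1 only Hist3h2a was, since Hist1h3c and Hist1h2bb had 23.5.

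In Hist1, the H3 gene Hist1h3c and the H2B gene Hist1h2bb shared the peak of highest fold, with 23.5 in replicate 1, 19.9 in replicate 2 and 24.4 in the replicated list. The replicates did not order it alike: in replicate 2 the H3 gene Hist1h3e was higher, at 22.0, and in replicate 1 it was lower, at 19.4. Among linker histones, Hist1h1e had 21.0 and 19.4 and Hist1h1c had 18.1 and 21.1, so that the 2 exchanged places between the replicates. The other marked H1 genes lay lower, Hist1h1b at 15.1 and 16.4, Hist1h1d at 11.5 and 10.3 and Hist1h1a at 9.81 and 10.1. The H4 gene Hist1h4h and the H2A gene Hist1h2af shared a peak of 18.8 and 20.6, and Hist1h4d, another H4 gene, had 16.7 and 18.3. The H2A gene Hist1h2an had 8.91 and 11.1 in the replicates but 18.7 in the replicated list, where its window took in the end of a peak of 3531 bp. At the bottom was the H4 gene Hist1h4c, with 4.13 in replicate 1, 5.36 in replicate 2 and 5.19 in the replicated list, percentile 41.3.

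The remaining H3 and H4 genes of Hist1 filled the space between. Among H3 genes, Hist1h3g had 18.8 and 18.3, Hist1h3i had 17.4 and 17.9, and Hist1h3h had 15.8 and 18.2. Lower H3 genes were Hist1h3f with 14.6 and 15.4, Hist1h3b with 12.4 and 14.6, Hist1h3a with 9.81 and 10.1 and Hist1h3d with 8.43 and 10.1. H4 genes reached lower levels of fold: Hist1h4i had 15.1 and 16.3, Hist1h4f 11.5 and 10.3, Hist1h4j 10.2 and 12.2 and Hist1h4k 9.29 and 10.9, while Hist1h4a had 7.4 and 8.88 and Hist1h4b had 6.54 and 7.21. By block, the median of the highest folds was 9.72 in replicate 1 and 11.6 in replicate 2 for the 12 marked genes of block 1, 15.1 and 16.3 for the 5 of block 2, and 12 and 13.4 for the 28 of block 3.

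The type medians in replicates 1 and 2 were 15.1 and 16.4 for H1, 15.2 and 16.7 for H3, 12.4 and 14.6 for H2A, 12.8 and 13.8 for H2B, and 11.5 and 12.2 for H4. In the replicated list they were 17.5 for H1, 16.8 for H3, 16.5 for H2A, 16.2 for H2B and 11.8 for H4. H4 was thus last in each list, but close to H2A and H2B in the replicates, and these medians were not tested. H4 genes ran from Hist1h4c, the lowest of the family, at 5.19 to Hist2h4 at 27.1. The H2B gene Hist1h2be needs care, because its nearest annotated start lies 35122 bp from its start codon, within the span of Hist1h1e, and its fold of 21.9 belongs to a peak that the 2 genes share. Around its start codon (within 1 kb) the highest folds were 16.7 in replicate 1 and 18.3 in replicate 2. The same values stand above for Hist1h4d. In the replicated list the peak, chr13:23581765-23585768, ended before that start codon, which was not under a peak in both replicates. Across the 67 members the median distance from start to start codon was 32 bp, and Hist1h1d was the only other member above 1 kb, at 1828 bp.

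**Figure D3:**
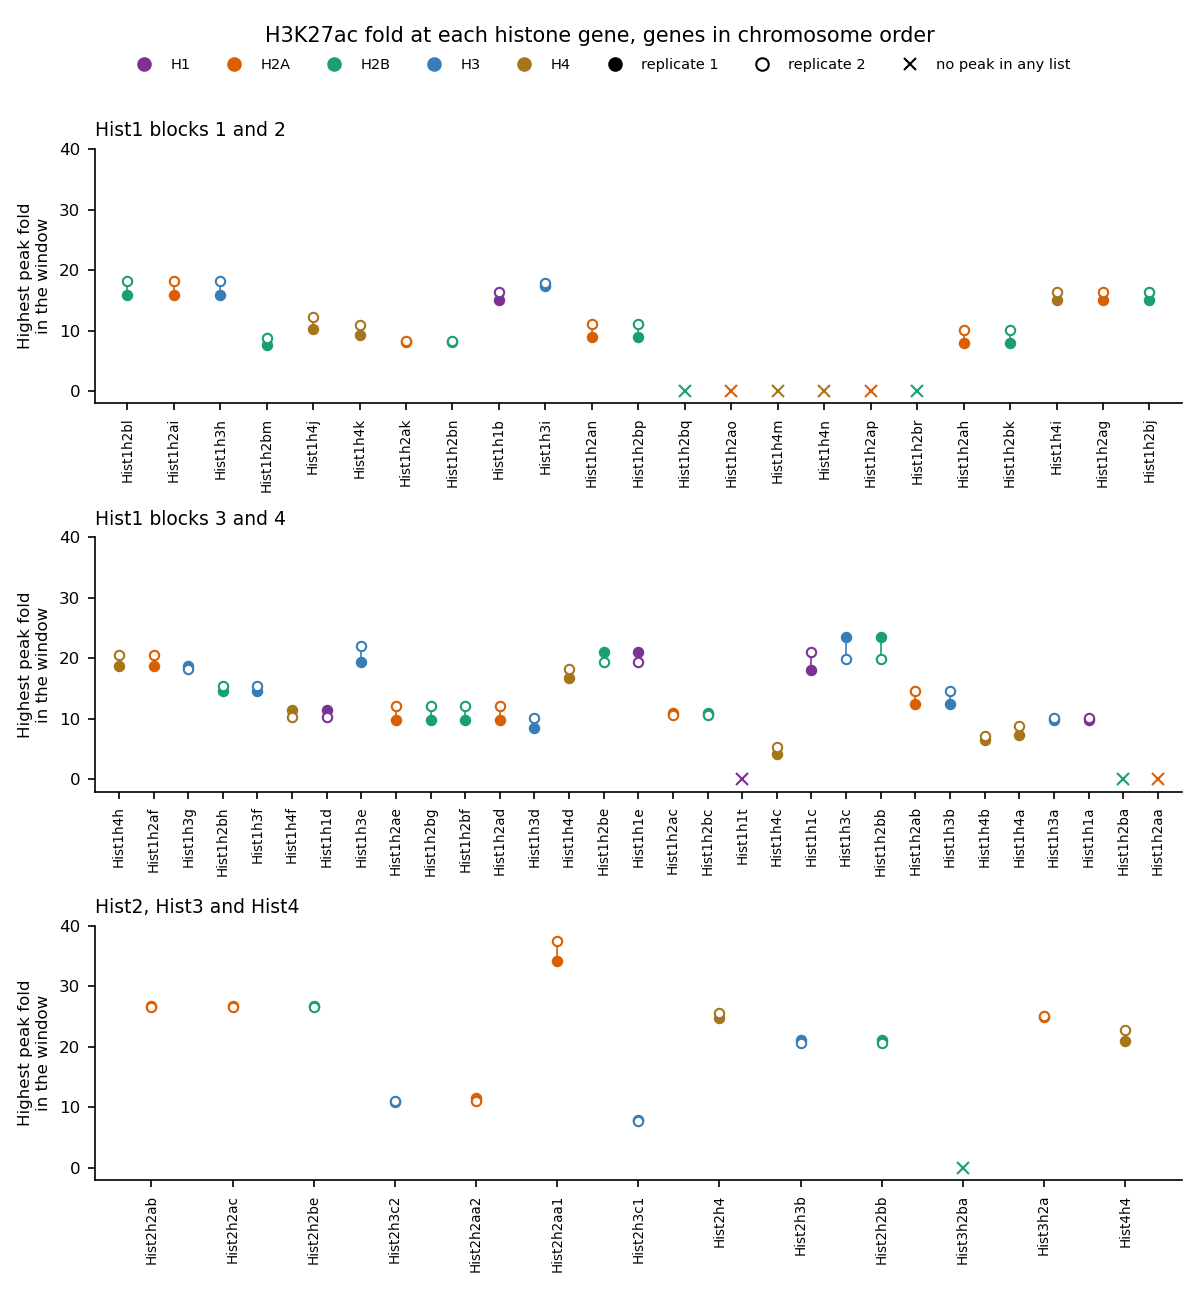
Highest fold in the 2 kb window of each of the 67 histone genes (vertical, linear), genes in chromosome order from left to right within each panel, coloured by histone type; filled circles are replicate 1, open circles replicate 2, and crosses genes with no peak. Hist2h2aa1 stands highest at 34.1 and 37.4, and the 6 crosses in a row in the top panel are the duplicated genes of Hist1 block 1.

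Clustered genes shared their peaks. The replicated list held 68 distinct peaks over histone promoters, or 1.57 histone genes' windows per peak. Of these, 32 (47.1%) overlapped the windows of several histone genes, against 1842 of 13701 other promoter peaks (13.4%) that overlapped windows of several protein-coding genes. There were 36 peaks with 1 histone gene, 26 with 2, 5 with 3 and 1 with 4. The peak with 4 lies at chr13:23571744-23574263 (2520 bp, fold 11.8) and touches the windows of Hist1h2ae, Hist1h2bg, Hist1h2bf and Hist1h2ad, 2 H2A/H2B pairs in a row. For 41 of the 57 marked genes the peak of highest fold was shared with another histone gene, and for 30 every peak in the window was, so the folds given for them are not values of 1 gene. Those with 3 genes included chr13:21716744-21717617 at Hist1h2bl, Hist1h2ai and Hist1h3h, and chr13:22041325-22042648 at Hist1h4i, Hist1h2ag and Hist1h2bj. A further pair of such peaks lay at Hist1h3i, Hist1h2an and Hist1h2bp, and at Hist1h2bf, Hist1h2ad and Hist1h3d.

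Histone promoter peaks had a median width of 1231.5 bp (quartiles 822 and 1908), against 934 bp (581 and 1626) for the other promoter peaks. Taken as distinct peaks, they had a median fold of 8.83 and percentile of 64.6, against 7.79 and 59.7 for the others. The distance between this percentile and the 84.8 per gene reflects the counting unit: 45 genes had several peaks in the window, and the gene-wise value takes the highest. The widest histone peak, 4781 bp at chr13:21778331-21783111, covered all of Hist1h1b and reached Hist1h3i. It was followed by 4004 bp at Hist1h4d, 3743 bp at Hist1h4h and Hist1h2af, 3635 bp at Hist2h4 and 3531 bp at Hist1h3i, Hist1h2an and Hist1h2bp. The narrowest had 284 bp.

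**Figure D4:**
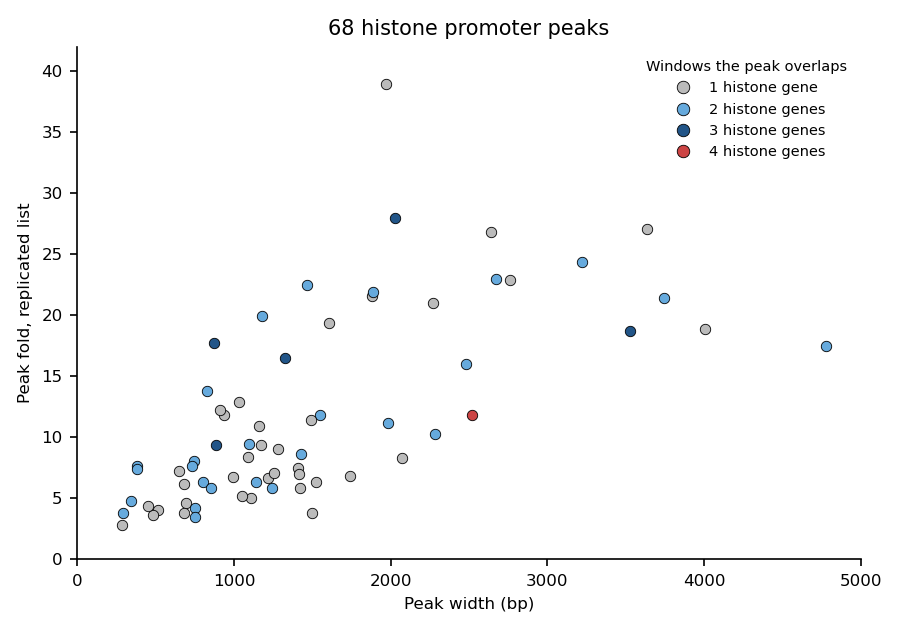
Width (bp, horizontal) and fold (vertical) of the 68 histone promoter peaks of the replicated list, coloured by the number of histone genes whose windows each overlaps. The widest has 4781 bp, and the peak of highest fold, 39.0, overlaps the window of a single histone gene.

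The peaks of histone genes flanked the 5′ end more often than they covered it. A peak lay over the 5′ end itself in both replicates at 14 of 57 marked histone genes (24.6%, Wilson interval 15.2 to 37.1%), against 3258 of 8576 marked other genes (38.0%, 37.0 to 39.0%). In the replicated list, 35 histone 5′ ends (61.4%) fell between 2 peaks of the window, against 24.3% of the other genes. The dip in marked histone genes began upstream of the 5′ end and ran into the gene. Their share under a peak was 87.7 and 93.0% at 700 bp upstream, and 42.1% in each replicate at 50 bp upstream. Marked other genes dipped as well, from 59.5 and 61.6% at 350 bp upstream to 39.1 and 44.7% at 50 bp upstream. At 200 bp downstream of the 5′ end, 22.8% of marked histone genes were under a peak in replicate 1 and 33.3% in replicate 2, against 54.7 and 60.2% of the other genes. At 600 bp downstream the order was the opposite, with 91.2 and 93.0% of histone genes against 60.6 and 64.7% of other genes. At 800 bp upstream the shares were 84.2 and 91.2% for histone genes and 34.7 and 36.3% for other genes. At 2000 bp upstream they were still 47.4% in each replicate for histone genes, against 8.94 and 9.28% for other genes. Positions away from the 5′ end can lie under peaks of neighbouring histone genes, which were not separated here.

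Part of the dip lay in repeated sequence and part in unique sequence. At the 5′ end itself 31.6 and 29.8% of marked histone genes were under a peak, and the 50-base word there occurred once in the genome for 94.7% of them. At 50 bp downstream 26.3% were under a peak in each replicate, with a unique word for 75.4%. The unique share was 29.8% at 200 bp and 87.7% at 600 bp. The 35 histone 5′ ends lay in 30 gaps of 230 to 1024 bp (median 442.5 bp). In the gaps a median of 46.3% of 50-base words were unique, against 95.6% in the flanking peaks. How much of the dip comes from reads that match several histone genes was not tested. Of the 30 gaps, 18 had under 50% unique 50-base words and 3 had at least 90%. Of these 3, the 922 bp gap at Hist1h1d and the 274 bp gap at Hist1h1e had 100%, and that at Hist1h4b had 93.0%. The gap at Hist1h1d surrounds an annotated start that lies 1828 bp from the start codon.

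**Figure D5:**
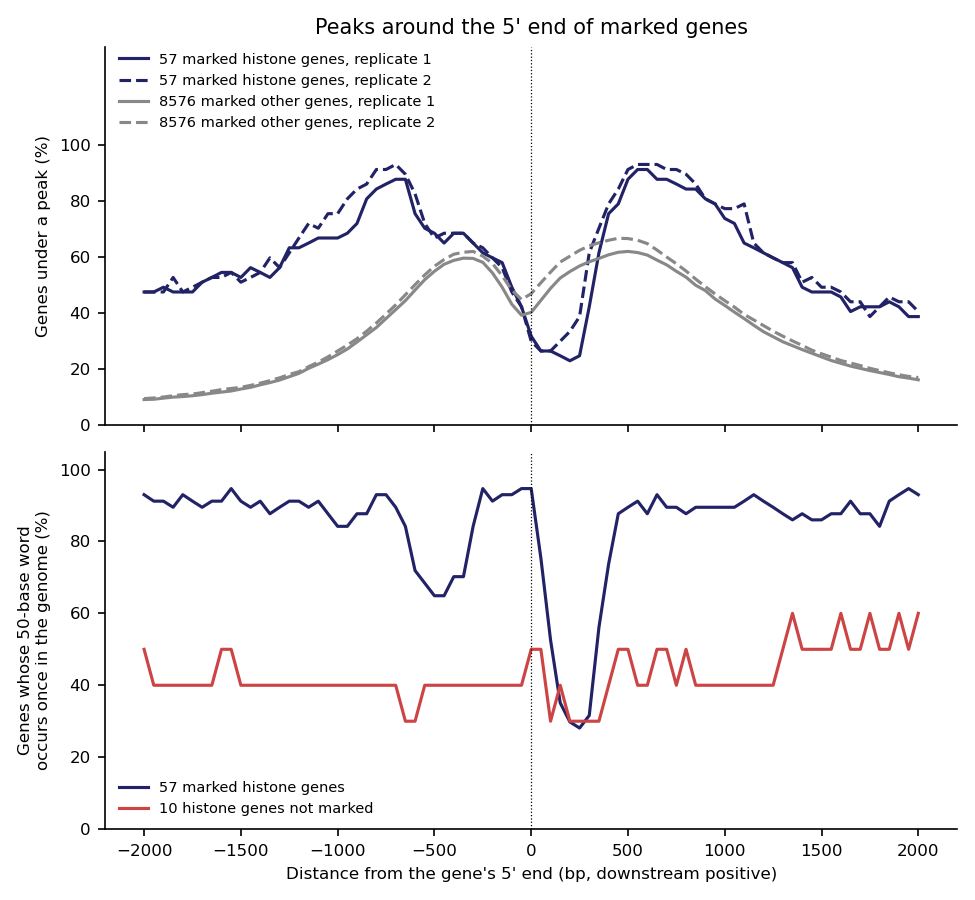
Top, share of marked genes under a peak (%) at each distance from the 5′ end (bp, downstream positive), for 57 histone genes and all marked other genes in replicate 1 (solid) and replicate 2 (dashed); bottom, share of the histone genes whose 50-base word at that position occurs once in the genome, for the 57 marked and the 10 unmarked. At 200 bp the histone genes are at 22.8 and 33.3% and the unique share of the marked ones at 29.8%.

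Head-to-head arrangement was common: 13 pairs had starts within 1 kb, 12 of them H2A with H2B, and in those the starts were 175 to 305 bases apart (median 258.5). Both genes were marked in 9 of the 12, and the remaining pairs were the duplicated and the testis ones. In all 9 marked pairs the sequence between the starts was 100% unique, yet in 5 of them no base of it was under a peak of the replicated list, and in none was it wholly covered. In the other 4, peaks covered 36.4 to 70.2% of it, with the most at Hist2h2ac-Hist2h2be. At Hist2h2ac-Hist2h2be, the folds were 26.7 and 26.5 on the H2A side and 21.7 and 22.6 on the H2B side in replicates 1 and 2. At Hist1h2ai-Hist1h2bl they were 15.8 and 18.2 on the H2A side and 5.33 and 6.54 on the H2B side. At Hist1h2ak-Hist1h2bn, the printed pair of low fold, the H2A side had 8.09 and 8.21 and the H2B side 6.03 and 5.14. Other pairs leaned the other way: at Hist1h2ae-Hist1h2bg the H2A side had 7.53 and 5.14 and the H2B side 9.81 and 12.2, and at Hist1h2ac-Hist1h2bc the H2A side had 7.23 and 8.04 and the H2B side 11.0 and 10.6. At Hist1h2ag-Hist1h2bj the H2B side had no peak in the window in replicate 1 and 3.73 in replicate 2, against 15.1 and 16.3 on the H2A side. The higher fold was on the H2A side in 6 of the 9 pairs and on the H2B side in 3, in each replicate. These sides are not independent values. In the replicated list the H2B sides of Hist1h2ae-Hist1h2bg and Hist1h2ad-Hist1h2bf were the same peak, chr13:23571744-23574263. The H2A-side peaks at Hist1h2ai, Hist1h2ag, Hist2h2ac, Hist1h2an and Hist1h2ad also overlapped the windows of Hist1h3h, Hist1h4i, Hist2h2ab, Hist1h3i and Hist1h3d, in that order. The pair of another kind, the H2B gene Hist1h2bh with the H3 gene Hist1h3f, differed: the 659 bases between their starts lay wholly under 1 peak, with folds of 14.6 and 15.4.

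Promoter words differed in frequency between the histone types. From 250 bases before to 50 after the 5′ end, TATAAA was found in 55.2% of histone genes against 12.5% of other genes, CCAAT in 83.6% against 38.9%, ATTTGCAT in 22.4% against 1.51% and AAACACA in 13.4% against 6.37%. CCAAT occurred in all 18 H2A and all 18 H2B genes, in 11 of 12 H3 and 5 of 6 H1 genes, but in 4 of 13 H4 genes. The octamer was found in 7 H2A and 8 H2B genes and in no H1, H3 or H4 gene. AAACACA was found in 4 of 6 H1 genes, among them Hist1h1e and the unmarked Hist1h1t. It also occurred in 3 H2B genes, 1 H2A gene and 1 H3 gene. Unmarked genes held the words about as often as marked ones. CCAAT was in 8 of 10 against 48 of 57 and TATAAA in 5 of 10 against 32 of 57. The octamer was in 2 of 10 against 13 of 57, and AAACACA in 2 of 10 against 7 of 57. These counts are of genes, and the stretches of head-to-head genes overlap, so 1 word can count for both. Both genes had the octamer at Hist1h2ah-Hist1h2bk, Hist1h2ae-Hist1h2bg, Hist1h2ac-Hist1h2bc, Hist2h2ac-Hist2h2be and the testis pair. That testis pair supplied both unmarked genes with the octamer, and the unmarked genes of the inverted duplication are near-identical copies. The testis pair shown above has TATAAA on both sides, CCAAT 4 times and the octamer, without a peak. A match to these letters is a description and shows no binding. The same stretch had a median GC content of 45.3% in histone genes, against 55.0% in other genes, and a median CpG observed over expected ratio of 0.75 against 0.523. Among marked genes alone, the median GC content was 45.0% in histone genes against 59.3% in other genes, and the CpG ratio was close, at 0.744 against 0.759.

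The 3′ stem-loop, which the stem-loop binding protein recognises in the mRNA, was sought as a 6-base stem beginning GG around a 4-base loop beginning TT. At annotated 3′ ends (300 bases before to 200 after) it was found at 44 of 67 histone genes (65.7%), with 34 of 57 marked and 10 of 10 unmarked genes, against 26 of 21871 other genes (0.119%). In a search added after seeing the data, within 200 bases after a stop codon, it was found at 63 of 67 histone genes (94.0%), against 16 of 21685 other genes with an annotated stop codon (0.0738%). All 10 unmarked genes carried it. It began 22 to 59 bases after the stop codon (median 31). The most frequent forms are shown as DNA with the stem in capitals and the loop in lower case; the first had 41 members of all types but H4, the second 9 members, and the third 8 members that were all H4 genes.
Form 1: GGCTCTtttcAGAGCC
Form 2: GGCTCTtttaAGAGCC
Form 3: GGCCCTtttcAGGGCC

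Genes that act with the canonical histones were mostly marked too, where the share over all protein-coding genes was 39.4%. Of those for histone gene transcription and mRNA 3′ processing, 21 of 24 were marked, among them Slbp, which encodes the stem-loop binding protein (13.8 and 20.6 in the replicates), and Npat (6.19 and 8.88). Cstf2, Nfyb and Ccne1 were not, although Nfyb and Ccne1 each had a peak of fold 4.36 in replicate 2 alone. Of the histone chaperones, which carry histones to and from DNA, 22 of 24 were marked, led by Rbbp4 (33.7 and 32.3). Of the S phase replication genes, 29 of 34 were marked, led by Cdt1, which licenses replication origins (31.8 and 34.7). Slbp was counted among these as well. The listed replication-independent histones had 9 of 16 marked. That list mixes widely expressed histones with germ-line forms, so its share describes neither kind alone. The 7 without the mark were H2afy2, H1f0, H1fx and the germ-line forms H1fnt, H2bfm, H2al2a and Hils1. Of the 9 marked, H1foo was the lowest, with 4.3 and 3.31 in the replicates. The highest was H3f3b, which encodes H3.3, with 29.8 and 44.2 in the replicates and a peak of 5915 bp in the replicated list. The share of the canonical genes, 85.1%, was close to that of the S phase genes, 85.3%; these shares have no test.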

How the data were processed

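H3K27ac peak lists of 2 replicates were used. Records deposited beside the lists say that the authors made 1 pseudoreplicated list per replicate from its alignments, and a replicated and a pooled list from both, with control alignments. As deposited, fold is a linear ratio and q a −log10 value, both the authors' own, with no SD or n. Aligner, caller, read length and depth are not given in the sources used here; a gene with no peak did not reach the authors' threshold and need not lack H3K27ac. The members and lists were chosen with earlier results of these data known.

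Positions are 1-based on GRCm38.p6, with GENCODE M21. Overlap meant at least 1 bp. Words of 32, 50 and 100 bases were counted on both strands over 65 genome sequences. Duplicates were aligned with blastn 2.17.0 (at least 1000 columns); the rest used Python 3.11.15 and numpy 2.4.6. Marking and word counting were tested on simulated data. The search after stop codons was added after seeing the data. The genes named are the unmarked ones, the 2 of highest fold in each cluster and type, the lowest, those under the 5 widest and the 5 most shared peaks, those whose sequence is shown and single members of a cluster; further members and genes outside the family were named after their values were seen. Alternatives are listed in the closing section. The RefSeq promoter table held 0 members by symbol, so sequences come from the genome. A further promoter sequence is not reported here.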

Additional observations from a re-analysis of the deposited data

How the results depend on the processing

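The share of marked histone genes was 85.1% from either replicate alone and with the replicated or the pooled list. It was also 85.1% with a −log10 q of at least 5 and with at least 200 bp of the window covered. Using the 1 kb window around each gene's outermost 5′ end alone, without its other starts, left the share at 85.1%. It was 83.6% with a window of 500 bp (Hist1h2bj lost), with the 20000 peaks of highest fold (Hist1h4c lost) and where replicate peaks had to overlap by 50% of both (Hist1h2bb lost). A window of 2.5 kb gave 86.6% (Hist1h1t gained), and merged windows counted once gave 86.8% (33 of 38). Without the members whose windows hold under 50% unique 50-base words, a choice made after seeing the data, it was 93.0% (53 of 57). The other genes, for which merged windows and repeated sequence were not counted, lay between 33.5 and 43.8% over the remaining settings. For clusters and types, 98 alternative values were the same and 10 moved. The median fold percentile of distinct peaks, 64.6, became 84.8 when each gene was given its highest peak. The median width, 1232 bp, was 1103 to 1157 bp without one or the other replicate, 1179 bp with a window of 2.5 kb and 1887 bp with each gene's widest peak. Histone genes per peak, 1.57, were 1.53 to 1.55 without one or the other replicate, 1.38 at 500 bp and 1.97 at 2.5 kb. With 2 replicates and depth not given, small differences in fold cannot be ordered.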
